A study of Homo sapiens with 40 samples.

Results

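The Golgi glycosylation enzymes described here were 10 genes, MAN1A1, MAN1A2, MGAT1, MAN2A1, MGAT2, FUT8, B4GALT1, GALNT1, GALNT2 and CHSY1. They were chosen by symbol, as the rows of the deposited count table that carry these names, and each matched 1 of its 57992 genes. All 10 passed the filter on low counts in every fit. The counts come from RNA labelled by proximity in HEK293T, a line derived from human embryonic kidney, in which the engineered peroxidase APEX2 was fused to a targeting sequence. The question put to these enzymes was whether their mRNAs were captured more by a peroxidase at the endoplasmic reticulum membrane than by one in the cytosol.

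Proteins that enter the secretory pathway are usually made by ribosomes docked on the endoplasmic reticulum, so the mRNA of a membrane protein is held near that membrane while it is translated. Golgi glycosylation enzymes are membrane proteins with a short tail in the cytosol, a single membrane-spanning anchor and a catalytic domain in the Golgi lumen. They trim and extend the sugar chains of glycoproteins and proteoglycans as these pass through the Golgi. The Golgi mannosidases remove mannose from N-linked chains, the MGAT enzymes start new branches on them with N-acetylglucosamine, and FUT8 and B4GALT1 add fucose and galactose. The GALNT enzymes start mucin-type O-linked chains, and CHSY1 builds chondroitin sulfate.

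There were 40 libraries in 18 groups, and each arm had enriched libraries (RNA bound to streptavidin) and input libraries (RNA taken before binding). The ERM construct places APEX2 at the endoplasmic reticulum membrane (4 enriched and 4 input libraries), NES in the cytosol, LMNB1 at the nuclear lamina and MITO in the mitochondrial matrix (2 libraries in each group). In the s6G arms of all 4 constructs, cells received 100 uM 6-thioguanosine, a base analogue built into new RNA, over 5 h, with 0.5 mM biotin-phenol added in the final 30 min and 1 mM hydrogen peroxide for 1 min at the end. The s4U arm, with MITO alone, had 4-thiouridine at the same dose and time. The APEX only arms of LMNB1 and MITO had biotin-phenol and peroxide without a thionucleoside, and the unlabelled arms of these constructs had peroxide alone. ERM and NES had neither an APEX only nor an unlabelled arm, so the background of the beads was not measured in those cells. How the fusions were delivered, and whether a line was 1 clone, is not given in the sources used here. The treatment fields of all 4 enriched ERM libraries and of the LMNB1 libraries titled s6G name s4U, but s6G stands in their titles and in the design text; they were grouped by title.

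Libraries held 5.34 to 14.5 M (mega) counts for enriched ERM, 5.72 to 12.6 M for ERM inputs, 7.76 to 8.23 M for enriched NES and 5.42 to 5.65 M for NES inputs. Enriched LMNB1 libraries held 1.49 to 8.56 M and enriched MITO libraries 0.123 to 6.89 M, the lowest of each being unlabelled. The ERM libraries fell into pairs: numbers 3 and 4 were deeper than numbers 1 and 2, and they differed from them by more than from each other (chi-square per degree of freedom between enriched libraries 5.77 for 1 and 2, 5.49 for 3 and 4, and 11.6 to 23.9 across). SEC61B, a subunit of the channel for proteins entering the endoplasmic reticulum, had 2320 to 3190 CPM (the count as a share of its library, scaled to 1 M counts) in enriched ERM libraries and 1140 to 1460 CPM in ERM inputs, against 64 to 209 CPM in the 32 libraries of other constructs. LMNB1, which encodes lamin B1, had 2340 to 6190 CPM in its construct and 119 to 319 CPM elsewhere. Both genes served as a check of the constructs. Reads of a fusion and of the cell's own gene cannot be told apart in these counts. Of 5 markers of HEK293T cells, all had a median of at least 1 CPM over the libraries; of 10 markers of other cell types, COL1A1 and COL3A1 did, and PTPRC, CD3E, LYZ, HBB, PECAM1 and KRT5 had a median of 0. The 10 summed to 5.76 to 97.3 CPM. CPM below are scaled by the trimmed mean of M values (TMM) within a construct's fit (ERM and NES share a fit), and log2 fold changes carry the standard error (SE) of the edgeR quasi-likelihood fit.

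With the ERM construct, 7 of the 10 enzymes were higher in enriched than in input libraries, 2 were lower and 1 was not called (edgeR, adjusted p under 0.05 over 15619 tested genes, n = 4 each). Over all tested genes 34.3% were called higher and 28.9% lower. The median log2 fold change was 0.95 for the enzymes and 0.11 for all tested genes. MGAT2, CHSY1, MGAT1 and MAN1A1 had the 4 highest values, and both GALNT genes were the ones that fell. In the same comparison with the NES construct, 3 enzymes were higher and 3 lower (28.7% and 26.4% of all genes), with a median of 0.26 against 0.01 for all genes. Without NES input library 1, which left a single NES input, the NES median was 0.38 for the enzymes and 0.04 for all genes. As CPM are shares of a bulk library, fewer labelled cells and less labelled RNA per cell cannot be told apart. Enriched libraries also had more PCR cycles than inputs, per the labels' protocols, and their part in these changes cannot be told apart from that of enrichment.

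**Figure D1:**
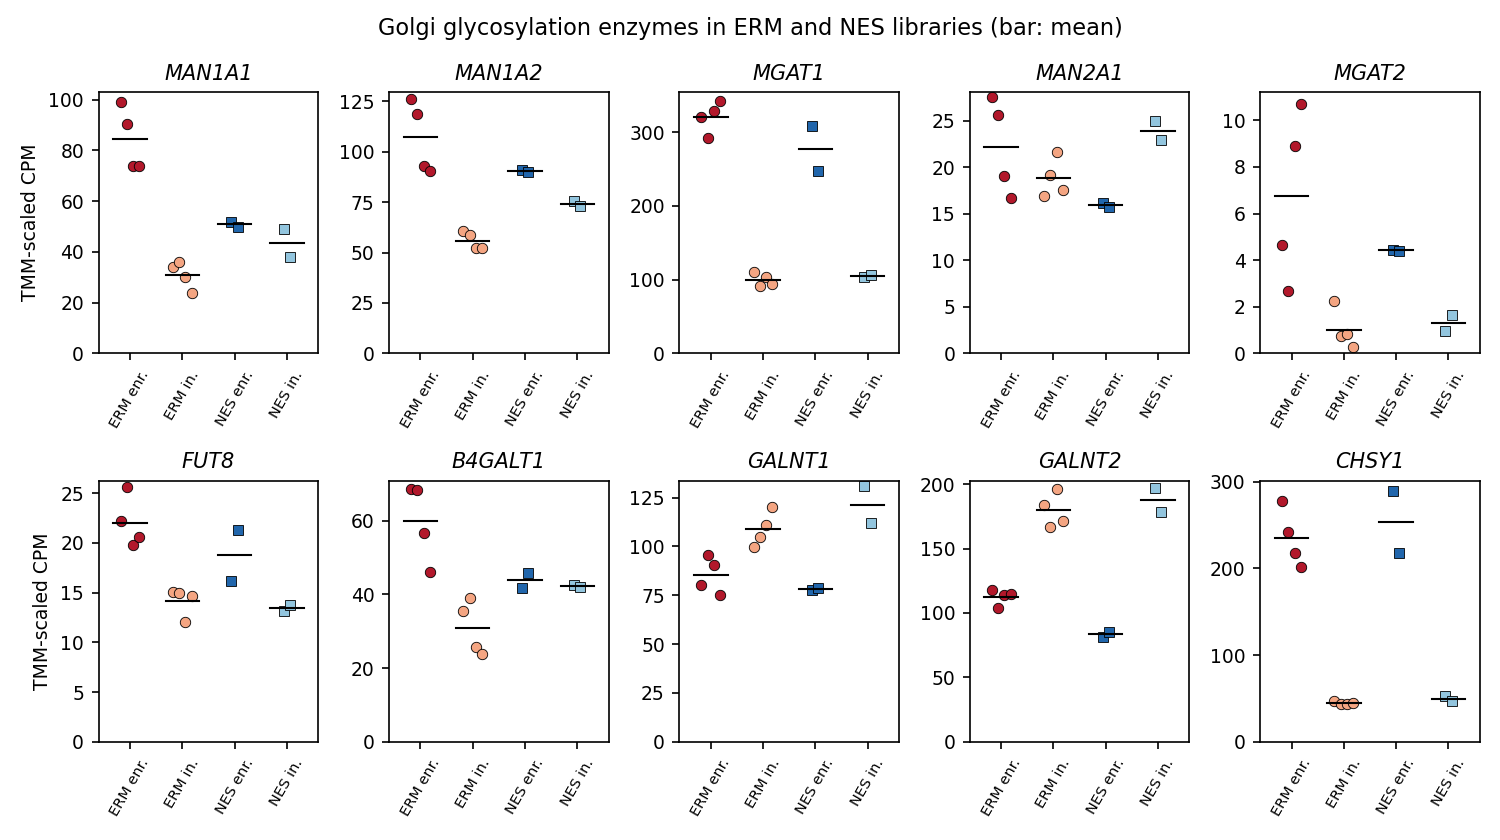
TMM-scaled CPM of the 10 enzymes (vertical axes, linear, from 0) in each ERM library (circles, 4 enriched and 4 input) and NES library (squares, 2 enriched and 2 input), with group means as bars. CHSY1 lay at 202 to 278 CPM in enriched ERM libraries and 43.1 to 47.2 CPM in ERM inputs, while GALNT2 lay at 104 to 118 CPM in enriched ERM libraries and 167 to 196 CPM in ERM inputs.

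MAN1A1 and MAN1A2, the Golgi mannosidases that trim the N-linked chain before branching, were both higher after enrichment with ERM. MAN1A1 (ENSG00000111885, chr6:119177205-119350605, all coordinates GRCh38.p14) had 99.2, 90.4, 74 and 73.8 CPM in enriched ERM libraries, against 34.1, 36.1, 29.9 and 23.8 CPM in ERM inputs. In NES libraries it had 51.9 and 49.7 CPM after enrichment, against 48.8 and 38.1 CPM in inputs. All 4 enriched ERM libraries were thus above every other library of both constructs. The enrichment was 1.45 ± 0.14 with ERM (log2 fold change ± SE, edgeR adjusted p = 7.36e-08) and 0.23 ± 0.20 with NES, which did not pass the test (adjusted p = 0.361). MAN1A2 (ENSG00000198162, chr1:117367449-117528872) had 126, 119, 93 and 90.5 CPM in enriched ERM libraries, against 60.6, 58.5, 52.2 and 52.1 CPM in ERM inputs. With NES it had 91 and 89.9 CPM in enriched libraries, against 75.7 and 73 CPM in inputs. Neither set of groups overlapped. Of all genes, 30.7% lay wholly above and 26% wholly below their inputs with ERM, and 40.1% and 39.5% with NES. The enrichment was 0.94 ± 0.12 with ERM (adjusted p = 1.61e-06) and 0.28 ± 0.17 with NES (adjusted p = 0.167).

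MGAT1 adds the N-acetylglucosamine that commits an N-linked chain to hybrid and complex forms. MGAT1 (ENSG00000131446, chr5:180784780-180815616) had 321, 292, 329 and 342 CPM in enriched ERM libraries, against 111, 90.7, 104 and 93.5 CPM in ERM inputs. In NES libraries the values were 308 and 247 CPM in enriched libraries, against 104 and 106 CPM in inputs. It was thus enriched with both constructs, by 1.68 ± 0.11 with ERM (adjusted p = 7.06e-10) and 1.40 ± 0.16 with NES (adjusted p = 6.51e-07).

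MAN2A1, mannosidase II, removes the last mannoses that must go before the next branch. MAN2A1 (ENSG00000112893, chr5:109689927-109869625) had 27.5, 25.6, 19.1 and 16.7 CPM in enriched ERM libraries, against 16.9, 19.2, 21.6 and 17.6 CPM in ERM inputs, and these groups overlapped. With NES it had 16.2 and 15.7 CPM in enriched libraries, against 25 and 22.9 CPM in inputs. It fell with NES (-0.59 ± 0.23, adjusted p = 0.0405), a call lost when any 1 NES library was left out, and had 0.22 ± 0.16 with ERM (adjusted p = 0.251). The ERM value depended on the replicate pair, at 0.59 from numbers 1 and 2 alone (adjusted p = 0.00754, and 0.00202 to 0.588 over 20 alternatives).

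MGAT2 adds the N-acetylglucosamine that starts the second antenna of complex chains. MGAT2 (ENSG00000168282, chr14:49620799-49623481) was counted least, with 29, 19, 134 and 168 counts in enriched ERM libraries, against 14, 4, 9 and 3 counts in ERM inputs. These were 4.67, 2.68, 8.9 and 10.7 CPM in enriched ERM libraries, against 2.23, 0.733, 0.824 and 0.291 CPM in ERM inputs. NES libraries had 4.44 and 4.41 CPM after enrichment, against 0.956 and 1.63 CPM in inputs. Enriched libraries lay wholly above inputs with either construct, as for 30.7% of all genes with ERM and 40.1% with NES. The error was the widest of the 10, at 2.87 ± 0.49 with ERM (adjusted p = 5.28e-05) and 1.75 ± 0.73 with NES (adjusted p = 0.048). The NES call was lost with replicate pairs in the fit (adjusted p = 0.0575) and when any 1 NES library was left out.

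FUT8 adds the core fucose of N-linked chains, and B4GALT1 adds galactose to their branches. FUT8 (ENSG00000033170, chr14:65356842-65744121) had 22.2, 25.6, 19.8 and 20.6 CPM in enriched ERM libraries, against 15.1, 15, 12 and 14.7 CPM in ERM inputs. The NES values were 16.2 and 21.3 CPM in enriched libraries, against 13.2 and 13.8 CPM in inputs. It rose by 0.63 ± 0.15 with ERM (adjusted p = 0.00109) and had 0.47 ± 0.22 with NES (adjusted p = 0.0756, and 0.0482 with replicate pairs in the fit, where 30.9% of all genes were higher and 28.9% lower). B4GALT1 (ENSG00000086062, chr9:33104077-33185089) had 68.6, 68.3, 56.5 and 46.1 CPM in enriched ERM libraries, against 35.4, 39, 25.6 and 23.7 CPM in ERM inputs. Its NES libraries lay close together, with 41.7 and 45.9 CPM after enrichment, against 42.4 and 42.1 CPM in inputs. The enrichment was 0.96 ± 0.16 with ERM (adjusted p = 4.27e-05) and 0.05 ± 0.23 with NES (adjusted p = 0.863). No source used here gives the strand setting of the counting, and reads of FUT8 and FUT8-AS1, of B4GALT1 and B4GALT1-AS1, and of MAN2A1 and MAN2A1-DT, which overlap them, then cannot be told apart.

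GALNT1 and GALNT2, which attach the N-acetylgalactosamine that starts mucin-type O-linked chains, were lower after enrichment with both constructs. GALNT2 (ENSG00000143641, chr1:230057789-230282122) had 118, 104, 114 and 115 CPM in enriched ERM libraries, against 184, 167, 196 and 171 CPM in ERM inputs. With NES it had 81.5 and 85.4 CPM in enriched libraries, against 197 and 178 CPM in inputs. It thus lay below its inputs with both, by -0.68 ± 0.10 with ERM (adjusted p = 6.71e-06) and by -1.17 ± 0.14 with NES (adjusted p = 1.58e-06). GALNT1 (ENSG00000141429, chr18:35580922-35711834) had 80.5, 95.8, 90.4 and 75.2 CPM in enriched ERM libraries, against 99.8, 105, 111 and 120 CPM in ERM inputs. In NES libraries the values were 77.9 and 79 CPM in enriched libraries, against 131 and 112 CPM in inputs. Its changes were -0.35 ± 0.11 with ERM (adjusted p = 0.00794) and -0.63 ± 0.15 with NES (adjusted p = 0.00213). With total count scaling the ERM value was -0.04 (adjusted p = 0.751), while the all-gene median shifted to 0.43, and ERM numbers 1 and 2 alone gave -0.19 (adjusted p = 0.209).

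CHSY1, which polymerises the repeating sugars of chondroitin sulfate, had nearly the same enrichment with both constructs. CHSY1 (ENSG00000131873, chr15:101175727-101252048) had 278, 242, 218 and 202 CPM in enriched ERM libraries, against 47.2, 43.1, 43.6 and 44.2 CPM in ERM inputs. The NES values were 289 and 218 CPM in enriched libraries, against 52.6 and 47.2 CPM in inputs. That was 2.40 ± 0.13 with ERM (adjusted p = 1.53e-10) and 2.35 ± 0.18 with NES (adjusted p = 1.43e-08), a ratio of 5.28 and 5.08. The difference between the constructs was 0.05, with a 95% interval of -0.39 to 0.50.

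MGAT1 and CHSY1 were 2 of the 3 enzymes enriched over input with both ERM and NES. The third, MGAT2, had no match to the motif shown here, and a link of the motif to enrichment was not tested. The upstream sequences of MGAT1 and CHSY1 are shown for this motif, which only they hold among the 9 enzymes with promoter windows. They are the 250 bases before a RefSeq start on the minus strand (GRCh38.p14, chr5:180802807-180803056 for MGAT1 and chr15:101252049-101252298 for CHSY1), written 5′ to 3′ along the gene, with the Golgi apparatus stress response element (GASE, ACGTGGC) in capitals. In both it lies on the opposite strand and so reads GCCACGT, 38 to 32 bases before the start of MGAT1 and 19 to 13 bases before that of CHSY1. The MGAT1 window lies inside the span of that gene (chr5:180784780-180815616). In other human genes GASE is known as a binding site of TFE3, which acts when the Golgi is under stress.
MGAT1: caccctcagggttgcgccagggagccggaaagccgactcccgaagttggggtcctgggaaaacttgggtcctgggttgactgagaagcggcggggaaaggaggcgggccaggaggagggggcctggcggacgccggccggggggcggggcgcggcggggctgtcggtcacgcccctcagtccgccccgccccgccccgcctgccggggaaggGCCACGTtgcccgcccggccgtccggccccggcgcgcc
CHSY1: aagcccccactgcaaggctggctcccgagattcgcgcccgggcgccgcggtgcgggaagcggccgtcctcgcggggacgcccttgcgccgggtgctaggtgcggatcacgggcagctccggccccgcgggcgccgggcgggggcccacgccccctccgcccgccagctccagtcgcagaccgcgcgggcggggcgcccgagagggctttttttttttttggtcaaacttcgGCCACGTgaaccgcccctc
The promoter table held 9 of the 10 enzymes, all but MAN1A2, in 19 windows. The element was in 2 of the 19 windows, 1 each of these genes, and in 2.78% of the 35116 windows of all genes, on either strand. The GC box (GGGCGG) was in 13 of the 19 windows (42.6% of all windows), the CCAAT box (CCAAT) in 5 (32% of all windows), and the ETS site (CCGGAAG) in 2, of MGAT1 and FUT8 (8.52%). The TATA box (TATAAA), the cyclic AMP response element (TGACGTCA) and the endoplasmic reticulum stress response element, ERSE, were in 0 of the 19 windows and in 10.7%, 1.65% and 0.074% of all windows. GASE on its opposite strand holds the CCACG that ends the endoplasmic reticulum element, whose start is the CCAAT box. The motifs were chosen after the values were seen, and a match is a description of the letters.

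The direct comparison of the constructs was the enrichment with ERM minus the enrichment with NES. All 10 estimates were above 0, and the median was 0.57 against -0.04 for all tested genes. Without pairing, edgeR called 0 of the 10 at an adjusted p of 0.05 and 0.0064% of all genes higher. That was SEC61B alone, the check of the ERM construct, which was high in ERM inputs as well. In the same edgeR fit 5 enzymes had an unadjusted p under 0.05, as had 13.9% of all genes. DESeq2 called 1 enzyme higher (0.589% of all genes higher and 1.82% lower). CHSY1 was below 0 with relative log expression scaling, with DESeq2, with no filter and with ERM numbers 3 and 4 alone (-0.09), MGAT2 with numbers 1 and 2 alone (-0.46), and CHSY1 and FUT8 with single libraries left out. Within an arm, a number was taken to mark 1 biological replicate before and after enrichment. With these pairs as a term in the fit, 4 of the 10 were called higher and 0 lower, against 2.52% of all genes higher and 3.58% lower. These were MAN1A1 at 1.22 ± 0.17 (edgeR adjusted p = 0.00163, and 5.41e-07 to 0.49 over 24 alternatives), B4GALT1 at 0.92 ± 0.17 (0.0074, and 5.69e-05 to 0.552), MAN1A2 at 0.64 ± 0.15 (0.0193, and 0.000178 to 0.59) and GALNT2 at 0.49 ± 0.14 (0.0387, and 0.00405 to 0.654). In the ERM arm the deviations of enriched and input libraries from their group means correlated at 0.3 to 0.41 within a number, at 0 to 0.48 between numbers 1 and 2 or between 3 and 4, and at -0.52 to -0.11 across these 2 sets. With the 2 sets as a term in place of the pairs, the same 4 enzymes were called higher and 0 lower (2.36% and 2.93% of all genes). Leaving out any 1 of the 12 libraries without pairs left 0 called. As a ratio of ratios, MAN1A1 enrichment was 2.32 times as high with ERM as with NES, and GALNT2 enrichment 1.40 times.

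The replicate pairs were also compared one by one. MAN1A1 had log2 ratios of enriched over input of 1.54, 1.32, 1.31 and 1.63 in the ERM pairs, against 0.09 and 0.38 in the NES pairs. B4GALT1 had 0.95, 0.81, 1.14 and 0.96 in the ERM pairs, against -0.03 and 0.13 in the NES pairs. GALNT2 had -0.64, -0.69, -0.79 and -0.58 in the ERM pairs, against -1.27 and -1.06 in the NES pairs. GALNT2 was therefore depleted with both constructs and less so with ERM. In 5 of the 10 (these, MAN1A2 and MAN2A1) every ERM ratio was above every NES ratio, which held for 14.1% of all tested genes, and in 0 of the 10 was the reverse the case (18.6%). MGAT1, FUT8, GALNT1 and CHSY1 had differences of 0.29 ± 0.19, 0.16 ± 0.26, 0.27 ± 0.19 and 0.05 ± 0.21 without pairs, and each 95% interval included 0. MGAT2 had 1.11 ± 0.92, its ERM ratios running from 1.03 to 4.79, and its sign turned with the libraries used: with pairs it was -0.39 from ERM numbers 1 and 2 and 2.32 from numbers 3 and 4.

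**Figure D2:**
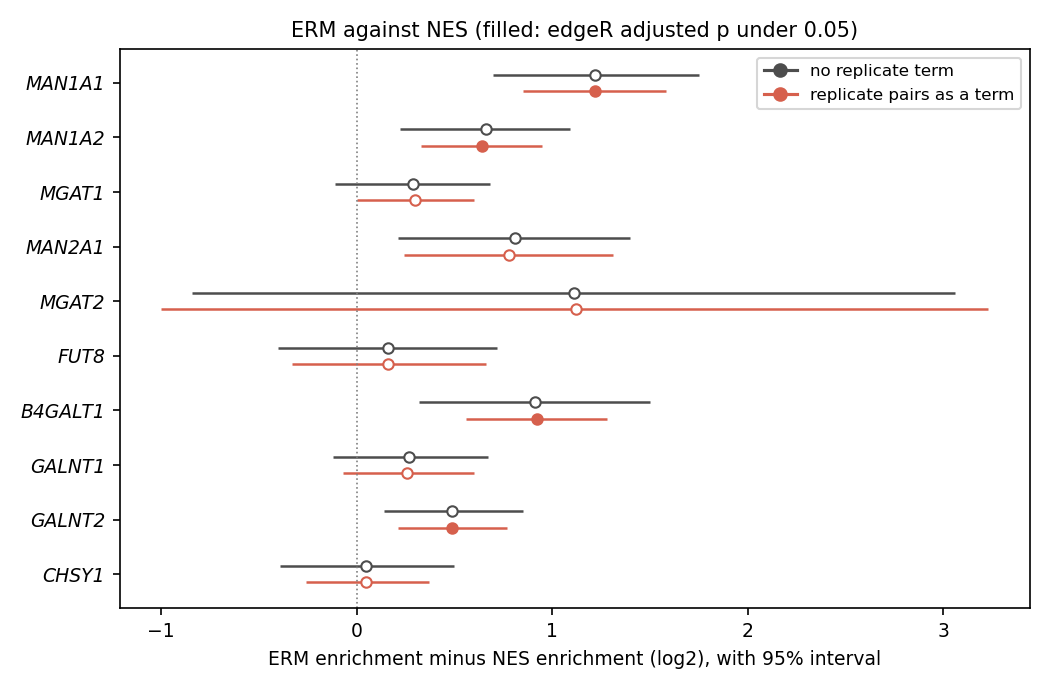
ERM enrichment minus NES enrichment (log2, horizontal axis) for each enzyme, with 95% intervals, without a replicate term (grey) and with replicate pairs as a term (red); filled points have an edgeR adjusted p under 0.05. Estimates differ little between the fits (MAN1A1 1.22 in both), and the intervals of MAN1A1, B4GALT1, MAN1A2 and GALNT2 are narrower with pairs.

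For MAN1A1, MAN1A2 and B4GALT1 the estimated difference had a part in each fraction, though no input difference was called with all libraries. For GALNT2 it lay mainly between the enriched libraries. MAN1A2 had mean CPM of 107 with ERM and 90.4 with NES in enriched libraries, and 55.8 and 74.4 in inputs. B4GALT1 had 59.9 and 43.8 in enriched libraries, and 30.9 and 42.2 in inputs. Between enriched libraries alone, ERM was above NES for MAN1A1 by 0.73 ± 0.18 (edgeR adjusted p = 0.0209) and for GALNT2 by 0.43 ± 0.12 (0.0441), which is 2 of 10 called higher, against 3.27% of all genes (0 lower, 2.71%). MAN1A1, MAN2A1, B4GALT1 and GALNT2 had every enriched ERM library above both enriched NES libraries (12.6% of all genes). Without enriched NES library 1 or 2 the count fell to 0, and without enriched ERM library 1, 3 or 4 it fell to 1, with GALNT2 lost. Between inputs, edgeR called 0 of the 10 (0.282% of all genes higher and 0.595% lower), 3 had an unadjusted p under 0.05 (17% of all genes), and DESeq2 called 0. MAN1A1, MAN1A2, MAN2A1, CHSY1 and B4GALT1 nevertheless had every ERM input below both NES inputs (16% of all genes), with estimates from -0.50 to -0.16. In the authors' deposited table of ERM over NES, whose libraries and design its header does not state, 4 enzymes had an unadjusted p under 0.05 and all 4 were higher, against 4.52% of the 31627 genes with a p higher and 3.9% lower: MAN1A1 (log2 fold change 0.77), MAN2A1 (0.51), B4GALT1 (0.49) and GALNT2 (0.47).

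The ERM libraries numbered 1 and 2 and those numbered 3 and 4 were also set against NES separately. Without pairs, numbers 1 and 2 gave 4 enzymes called higher (MAN1A1, MAN1A2, MAN2A1 and B4GALT1) and 0 lower, against 2.35% of all genes higher and 2.92% lower. Numbers 3 and 4 gave 5 higher (MAN1A1, MAN1A2, B4GALT1, GALNT2 and MGAT2) and 0 lower, against 3.85% and 5.3%. Between inputs, numbers 3 and 4 also had 3 enzymes called lower and 0 higher than NES (1438 of 16198 genes lower and 1653 higher). These were B4GALT1 (edgeR adjusted p = 0.000355), MAN1A1 (0.00127) and MAN1A2 (0.00244), so part of their difference lay between inputs. For ERM minus NES enrichment, MAN1A1 was at 1.24 with numbers 1 and 2 and 1.23 with numbers 3 and 4, and B4GALT1 at 0.87 and 1.00. Both fits used the same NES libraries, so these values are not independent of each other. MAN2A1 was at 1.18 in the fit of numbers 1 and 2 and was not called with numbers 3 and 4.

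Other genes of glycosylation were counted in the same comparison, with replicate pairs in the fit. Of 28 tested Golgi enzymes of glycosaminoglycan synthesis other than CHSY1, 8 were higher and 0 lower (median 0.53), with HS6ST2, a heparan sulfate 6-O-sulfotransferase, at 0.95 ± 0.16 (edgeR adjusted p = 0.00307), EXT2, a heparan sulfate polymerase, at 0.74 ± 0.17 (0.019) and CHST14, a dermatan sulfotransferase, at 0.74 ± 0.21 (0.0415). Of 13 Golgi nucleotide sugar transporters and related carriers, 3 were higher and 0 lower (median 0.34): TMEM165, a Golgi ion transporter needed for glycosylation, at 1.03 ± 0.19 (0.00666), SLC35B2, which carries the sulfate donor, at 0.68 ± 0.15 (0.0153), and SLC35B4, a nucleotide sugar transporter, at 0.64 ± 0.14 (0.0178). Of 28 enzymes that build and trim N-linked chains in the endoplasmic reticulum, 7 were higher and 0 lower (median 0.34), among them the glucosyltransferase ALG10 at 0.99 ± 0.27 (0.0344), the glucosidase MOGS at 0.81 ± 0.16 (0.0107) and EDEM3, which acts on misfolded glycoproteins, at 0.77 ± 0.17 (0.0147). Of 19 tested further O-glycan enzymes, GALNT18 alone was higher, at 1.2 ± 0.26 (0.0138), with a median of 0.38. The 15 further Golgi N-glycan enzymes had 0 called by edgeR and a median of 0.07. Without pairs edgeR called 0 in each of these lists.

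Lists whose proteins are made in the cytosol lay near the median of all genes. Of 28 enzymes that make nucleotide sugars in the cytosol or nucleus, edgeR called 0, with a median of -0.09. Of 28 peripheral Golgi proteins, which attach to the Golgi from the cytosolic side, 1 was higher and 2 lower, with a median of -0.03. The 2 that were lower were GCC1, a golgin, at -0.72 ± 0.15 (0.0118) and ARF1, a small GTPase, at -0.44 ± 0.13 (0.0442). Of the 5 HEK293T markers, 3 were lower and 0 higher (median -0.68): NEFL at -0.87 ± 0.14 (0.00294), VIM at -0.74 ± 0.16 (0.0128) and NEFM at -0.68 ± 0.16 (0.0194). The 5 summed to 476 to 502 CPM in enriched ERM and 580 to 629 CPM in enriched NES libraries. In inputs the sums were 549 to 581 CPM with ERM and 576 to 592 CPM with NES. Of the 10 markers of other cell types, 3 were tested and edgeR called 0 (median 0.11). The 10 summed to 5.76 to 10.9 CPM in enriched ERM and 6.56 to 8.89 CPM in enriched NES libraries, and in inputs to 24.1 to 29.9 CPM with ERM and 26.2 to 31.5 CPM with NES. The part of these markers in the values of the enzymes was not tested.

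**Figure D3:**
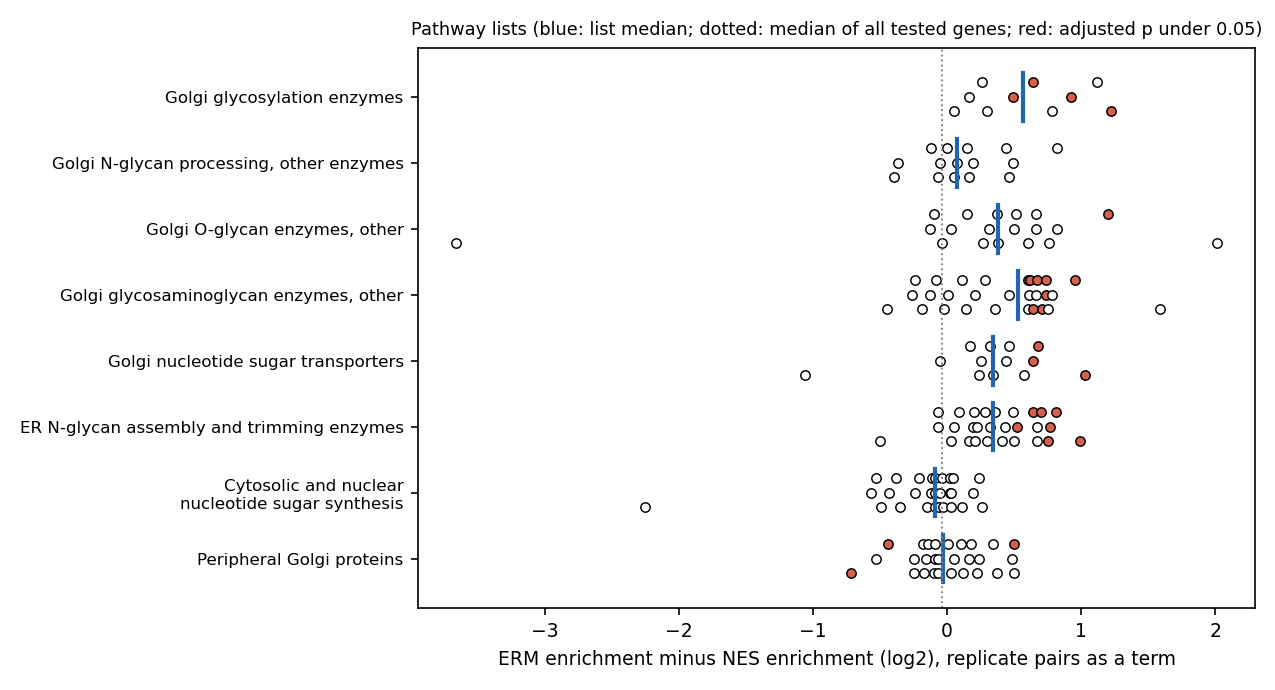
ERM enrichment minus NES enrichment (log2, horizontal axis, replicate pairs as a term) of every tested gene in the 10 Golgi glycosylation enzymes and 7 related lists (rows, points spread vertically for legibility), red where the edgeR adjusted p is under 0.05. The blue bar is the list median, 0.57 for the 10 enzymes, 0.53 for other glycosaminoglycan enzymes, -0.09 for cytosolic and nuclear nucleotide sugar synthesis and -0.03 for peripheral Golgi proteins; the dotted line is the median of all tested genes (-0.04).

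The lists ranked differently for enrichment over input itself. With ERM, 25 of 28 tested glycosaminoglycan enzymes were higher and 0 lower (median 1.34), and with NES 19 were higher and 1 lower (median 1.12). Endoplasmic reticulum N-glycan enzymes had 8 higher and 15 lower with ERM (median -0.54) and 4 higher and 17 lower with NES (median -0.82). Over all tested genes the fit without pairs called 34.3% higher and 28.9% lower with ERM (median 0.11). With NES it called 28.7% higher and 26.4% lower (median 0.01).

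Against the nuclear lamina, the ERM enrichment of the enzymes stood farther apart. The ERM enrichment minus the LMNB1 enrichment, both with s6G, was called higher in 7 of 10 and lower in 0 (18.2% and 14.6% of 16139 tested genes), with a median of 1.90 against -0.01 for all genes. The 7 were MAN1A1 at 2.72 ± 0.28 (edgeR adjusted p = 8.07e-07), CHSY1 at 2.63 ± 0.26, B4GALT1 at 2.45 ± 0.37, FUT8 at 2.08 ± 0.29, MGAT1 at 2.01 ± 0.27, MAN1A2 at 1.21 ± 0.25 and GALNT1 at 1.15 ± 0.23 (0.000534). MGAT2 had 1.79 ± 0.87 (adjusted p = 0.111), MAN2A1 -0.23 ± 0.31 and GALNT2 -0.03 ± 0.20, the last with a 95% interval of -0.43 to 0.38. Leaving out any 1 of the 12 libraries left 7 or 8 called. This comparison, the next and the one with NES share the ERM libraries.

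Against the mitochondrial matrix, 5 of 10 were called higher and 0 lower (8.92% and 9.62% of all genes), with a median of 1.22 against 0.12. These were CHSY1 at 2.05 ± 0.27 (edgeR adjusted p = 2.72e-05), MAN1A1 at 1.88 ± 0.29 (0.000153), MGAT1 at 1.51 ± 0.28 (0.000715), B4GALT1 at 1.51 ± 0.38 (0.0078) and FUT8 at 0.93 ± 0.32 (0.0457). The other 5 did not pass the test: MGAT2 had 2.19 ± 1.01 (adjusted p = 0.134), MAN1A2 0.68 ± 0.26 (0.0692), GALNT1 0.13 ± 0.23 (0.749), MAN2A1 -0.01 ± 0.33 (0.989) and GALNT2 -0.51 ± 0.20 (0.0761). The FUT8 call was lost with any 1 of the 4 MITO libraries left out, with 5 of the 8 ERM libraries left out in turn (enriched 1 and 2, input 2, 3 and 4), and with DESeq2 (adjusted p = 0.0784); over 21 alternatives its adjusted p ran from 9.17e-05 to 0.275. B4GALT1 was lost without enriched MITO library 1 (1.26, adjusted p = 0.0536, and 6.41e-07 to 0.0536 over 21 alternatives). With replicate pairs 18.4% of all genes were called higher and 16% lower, MAN1A2 was added among those higher (0.67, adjusted p = 0.00632) and GALNT2 was lower (-0.51, adjusted p = 0.0103). Without pairs, 4 enzymes were higher and 1 lower with relative log expression scaling (1086 and 1918 of all genes) and with DESeq2 (1313 and 2168). The adjusted p of GALNT2 ran from 0.00277 to 0.308 over 21 alternatives. Scaling by total counts moved the median of all genes to 1.26 and that of the enzymes to 2.35, a distance of 1.09, against 1.10 with TMM, and 9 were then called higher, as were 50.9% of all genes (0.886% lower). RNA of mitochondrial DNA took 26.3% to 58.2% of the counts in the 6 labelled enriched MITO libraries, against 1.45% to 9.53% in the other 34 libraries.

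At the nuclear lamina itself the enzymes lay mostly below input. With s6G, edgeR called 2 of 10 lower and 0 higher (7.64% and 5.37% of 16525 genes), and the median was -0.38 against 0.13 for all genes. GALNT1 had 49.4 and 38.5 CPM in enriched LMNB1 libraries, against 127 and 104 CPM in inputs (-1.40 ± 0.33, adjusted p = 0.0145). B4GALT1 had 10.2 and 18.3 CPM in enriched libraries, against 25.3 and 48.4 CPM in inputs (-1.37 ± 0.42, adjusted p = 0.0479). Both were lower in each pair of libraries. With pairs in the fit 4 were called lower and 0 higher (10.6% and 8.35% of all genes), MAN1A1 (-1.17) and GALNT2 (-0.53) in addition. FUT8 had 7.1 and 8.06 CPM in enriched libraries, against 17.4 and 21 CPM in inputs, and did not pass the test (-1.34 ± 0.51, adjusted p = 0.107). Without enriched library 2 no enzyme was called, and without enriched library 1 or either input library 1 was. In 6 enzymes both enriched libraries were below both inputs (26.5% of all genes).

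MAN2A1 was the one enzyme of the 10 whose enriched libraries lay above its inputs in both labelled arms at the lamina. In the s6G arm alone this held for 2 of the 10 and for 37.4% of all genes. The share of all genes for which it held in both arms was not counted, so it is a description of MAN2A1 alone. MAN2A1 had 36.3 and 45.1 CPM in enriched s6G libraries, against 23.9 and 31.1 CPM in inputs. In the APEX only arm it had 49.2 and 66.3 CPM in enriched libraries, against 33.8 and 37.7 CPM in inputs. Neither passed the test (edgeR, 0.56 ± 0.27 with adjusted p = 0.191, and 0.69 ± 0.26 with adjusted p = 0.219). In the unlabelled arm it lay below, with 23.6 and 21.3 CPM in enriched libraries, against 38.2 and 34.5 CPM in inputs.

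In the other arms at the lamina few enzymes were called. In the APEX only arm edgeR called 0 of 10 (0.411% of all genes higher and 1.02% lower), 3 had an unadjusted p under 0.05 (15.8% of all genes) and DESeq2 called 1 lower (4.12% of all genes lower and 2.19% higher). GALNT2 was nearest, with 105 and 112 CPM in enriched libraries, against 187 and 180 CPM in inputs (-0.76 ± 0.19, adjusted p = 0.065, and 0.0374 with pairs in the fit, where 2.89% of all genes were lower and 1.19% higher). In the unlabelled arm edgeR called 0 (0.0242% higher and 0.0121% lower), 3 had an unadjusted p under 0.05 (17.3% of all genes) and DESeq2 called 0. Leaving out enriched library 2 of that arm left the shallowest LMNB1 library alone in its group. The median of the enzymes was then -0.93, against -0.1 for all genes. The s6G enrichment minus the APEX only enrichment had 0 called by edgeR (0% of all genes in each direction), 1 unadjusted p under 0.05 (12.2% of all genes) and 0 called by DESeq2. The lowest value was that of GALNT1, at -1.28 ± 0.46 (adjusted p = 0.244). In the authors' deposited table for LMNB1, whose header does not name the denominator, 5 enzymes had an adjusted p under 0.05 with s6G, all lower (GALNT1 -1.56, B4GALT1 -1.54, FUT8 -1.51, MAN1A1 -1.33 and GALNT2 -0.70), against 14.7% of its genes with an adjusted p lower and 7.29% higher. For the APEX only arm, 2 of 9 were lower in the authors' deposited table (GALNT2 -0.80 and MGAT1 -0.65), against 12.3% lower and 4.62% higher.

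**Figure D4:**
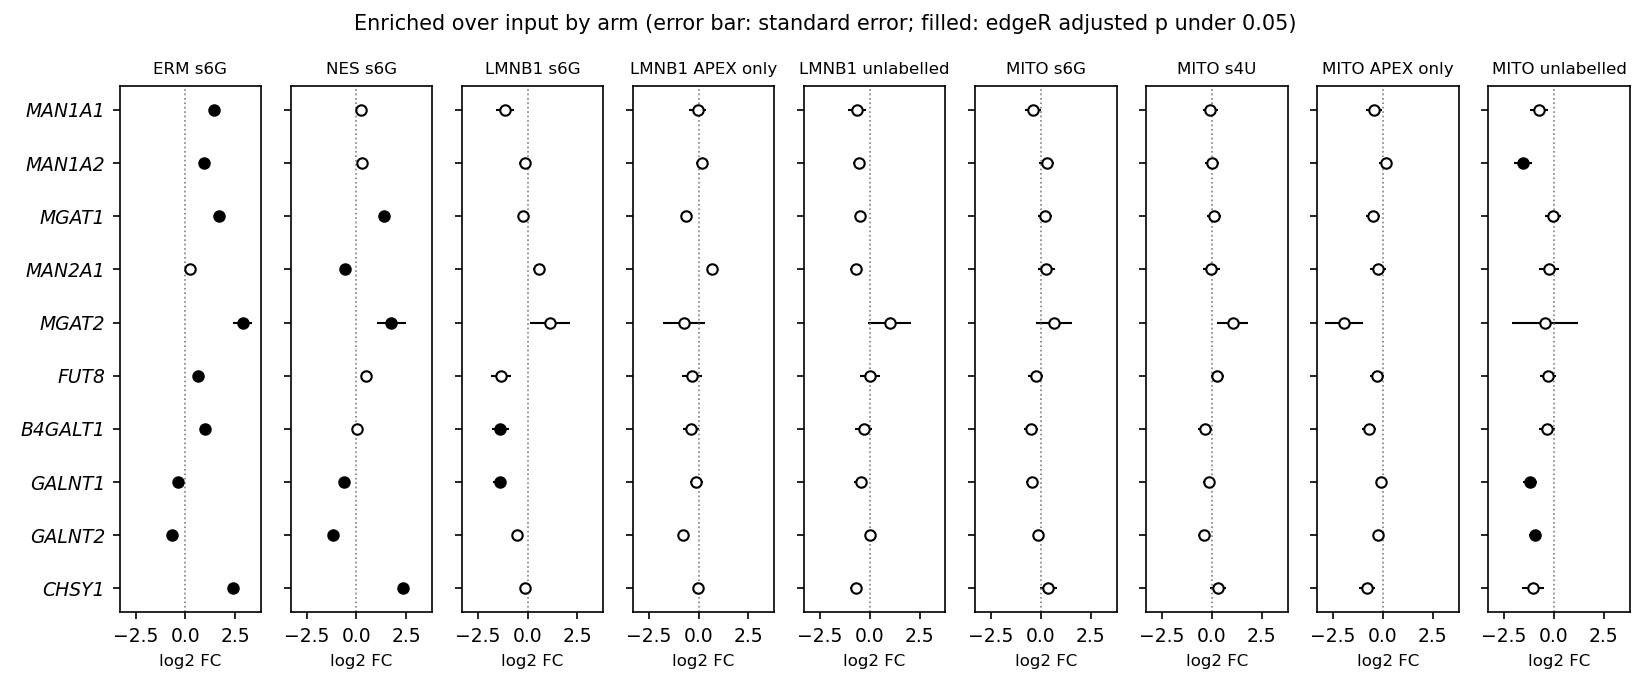
Log2 fold change of enriched over input libraries (horizontal axes) for each enzyme in the 9 arms (panels), with standard errors as bars; filled points have an edgeR adjusted p under 0.05. The ERM panel has 7 enzymes called higher and 2 lower, the NES panel 3 and 3, the LMNB1 s6G panel 2 lower, and the labelled MITO panels none called.

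With the matrix construct no enzyme was called in a labelled arm. edgeR called 0 of 10 with s6G (0.29% of 15151 genes higher and 0.0264% lower). The count was also 0 with s4U (0.112% and 0%), and 0 without a thionucleoside (APEX only, 0.251% and 0.0198%); 0 had an unadjusted p under 0.05 (8.86%, 6.93% and 8.86% of all genes), and DESeq2 called 0 in each. The medians were 0.04, -0.01 and -0.39, against 0.01, 0.01 and -0.01 for all genes. CHSY1, which stood highest with ERM among the well-counted enzymes, had 78.5 and 45 CPM in enriched s6G libraries, against 49.2 and 46.3 CPM in inputs. In the APEX only arm it had 27.4 and 35 CPM in enriched libraries, against 55.8 and 53.4 CPM in inputs. MAN1A1 had 35.4 and 28.1 CPM in enriched s6G libraries, against 43.8 and 40.1 CPM in inputs. None of these differences passed the test; the 2 enriched libraries of an arm differed by a chi-square per degree of freedom of 14.8 (APEX only) to 51.9 (s6G).

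Unlabelled MITO libraries had 3 of 10 called lower and 0 higher (4.09% and 5.78% of all genes), MAN1A2 at -1.55 ± 0.44 (edgeR adjusted p = 0.0378), GALNT1 at -1.2 ± 0.33 (0.0326) and GALNT2 at -0.97 ± 0.29 (0.0448). The enriched libraries of that arm held 0.123 and 0.842 M counts, so MAN1A2 rested on 3 and 28 counts, GALNT1 on 7 and 47, and GALNT2 on 18 and 67. With replicate pairs CHSY1 was called lower as well (-1.2, adjusted p = 0.0254), which made 4 lower and 0 higher (10.6% and 9.89% of all genes). None of the 3 was called with relative log expression or total count scaling in edgeR, with a stricter filter on low counts or with the compared libraries alone, and leaving out enriched library 2, or input library 1 or 2, also lost all 3. Without enriched library 2, MAN1A1 alone was called (-3.97, adjusted p = 0.00744), from 1 count in the library that was left. Without enriched library 1, MAN1A2 was lost (-1.48, adjusted p = 0.0681) and CHSY1 was called (-2.16, adjusted p = 0.0202).

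Levels before enrichment were compared between arms of 1 construct. For s6G inputs over APEX only inputs, edgeR called 0 of 10 at the lamina (0.109% of all genes higher and 0.0182% lower; 0 had an unadjusted p under 0.05, as had 11.5% of all genes) and 0 in MITO cells (0.0528% and 0%; 1, and 8.49% of all genes). For s4U inputs over APEX only inputs it called 0 (0% and 0%; 1, and 3.85% of all genes), and DESeq2 called 0 in all 3. FUT8 had 12.4 and 12.1 CPM in MITO s6G inputs and 22 and 24.7 CPM in s4U inputs, against 23.3 and 22.7 CPM in APEX only inputs. The s6G value was -0.91 ± 0.35 (adjusted p = 0.494). MAN2A1 had 17.6 and 22.9 CPM in s6G inputs and 16.3 and 17.2 CPM in s4U inputs, against 38 and 26.7 CPM in APEX only inputs, and neither difference passed the test (adjusted p = 0.699 and 1).

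Over the 9 comparisons of enriched over input, the enzymes did not share 1 profile. MAN1A1 was nearest to the median profile of the 10, with a root mean square difference of 0.35 in log2, and MGAT2 (1.27), CHSY1 (0.89) and GALNT2 (0.79) were farthest. Among 7982 well-counted genes, those outside the 10 that lay nearest to the median profile were NIPAL3 (0.17), CD99L2 (0.20), SLC39A14 (0.20), RCE1 (0.20) and SCARF2 (0.21). NIPAL3 had 1.02 with ERM, 0.45 with NES and -0.42 at the lamina with s6G, where the enzymes had medians of 0.95, 0.26 and -0.38. The 3 enzymes with the shortest genomic span, MGAT2 (2.68 kb), MGAT1 (30.8 kb) and CHSY1 (76.3 kb), were the 3 with the highest ERM enrichment. Across the 10 the rank correlation of span with ERM enrichment was -0.77, in libraries that all genes share, while over 12577 protein-coding genes it was 0.05. With NES it was -0.58 for the 10, and in the other 7 comparisons it ran from -0.43 to 0.62, the highest being MITO APEX only. The part of span was not tested, and MGAT2, the shortest, rested on 3 to 14 counts in ERM inputs.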

How the data were processed

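RNA was sequenced from 40 libraries of HEK293T cells. Whole-number counts per gene were deposited by the authors for 57992 genes. The submitters' processing notes name DESeq2, deepTools 2.5.3, SAMtools, HISAT2 2.1.0 and HTSeq 0.7.2; annotation and strand setting were not given in the sources used here. The authors also deposited log2 fold changes with p-values for ERM over NES and for LMNB1, and log2 values of TPM for MITO pooled over replicates. Those TPM followed the genomic span of a gene (r = 0.96 on a log scale over 8449 genes), so genes were not ranked by level.

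Counts were fitted in R 4.3.3 with edgeR 4.0.16 (robust quasi-likelihood test, TMM, default filter on low counts, Benjamini-Hochberg over all tested genes, threshold 0.05), in 4 fits. These held ERM with NES (12 libraries), LMNB1 (12), MITO (16), and the 20 s6G libraries of all 4 constructs. The last gave ERM minus LMNB1 and ERM minus MITO enrichment. The other fits were tested on simulated data. Alternatives were relative log expression scaling, total counts, DESeq2 1.42.0, no filter, a stricter filter, only the compared libraries, each library left out, and a term for replicate pairs. The ERM libraries by number were set apart, and a term for the 2 sets was added, after seeing the data. Pair ratios used CPM with 0.1 added. Figures used matplotlib 3.10.9.

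Libraries were grouped by title. The series design describes RNA taken before and after enrichment from biological replicates, and libraries of 1 number deviated together from their group means, so numbers were taken to pair enriched and input libraries within an arm. The correlation of these deviations was 0.3 to 0.41 over the 4 ERM pairs and 0.1 to 0.78 over 8 arms with 2 libraries, where both pairs give 1 value. In the ERM arm it was 0 to 0.48 between unlike numbers of a set (1 and 2, or 3 and 4) and -0.52 to -0.11 across the sets, so it does not single out the number within a set; a term for the sets was therefore tried in place of the pairs. Nothing says that replicates came from separate cultures, so p-values measure the spread between these samples, which may be technical. Replicates differed by more than sampling noise in every group. Every enzyme is named in the report. Up to 3 called genes per related list were named by size of change, and the 5 genes nearest to the median profile. The members and lists were chosen with earlier results of these data known. Protein sequences were not used here.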

Additional observations from a re-analysis of the deposited data

Results flagged for a closer look

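FUT8 had 12 CPM in ERM input library 3, a gap of 0.873 of the range from the other 3 inputs. Of 20 groups of 4 libraries tested, this was the only one with a library so far apart, and chance gives about 1 in 20.

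Enrichment differed between ERM and LMNB1, by the test of the difference in edgeR, for 7 enzymes: MAN1A1 (2.72), CHSY1 (2.63), B4GALT1 (2.45), FUT8 (2.08), MGAT1 (2.01), MAN1A2 (1.21) and GALNT1 (1.15). It differed between ERM and MITO for 5: CHSY1 (2.05), MAN1A1 (1.88), MGAT1 (1.51), B4GALT1 (1.51) and FUT8 (0.93). ERM is higher in each, on the log2 scale.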

How the results depend on the processing

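Of the values of single enzymes under the alternatives, 2171 kept their sign and their side of the threshold, 78 newly passed it with the same sign, 68 no longer passed it and 149 changed sign. Of the counts of called enzymes, 206 stayed within 1.5 times and 41 did not. In 147 of the 149 sign changes neither fit passed the threshold. The other 2 were MAN2A1 for ERM minus MITO enrichment with total counts (1.2) and FUT8 in unlabelled LMNB1 libraries without enriched library 2 (-1.68), which passed it in the alternative alone. For ERM minus NES enrichment, 0 enzymes became 2 with total counts, 1 with DESeq2, 1 with no filter, 4 with the replicate block, 4 with ERM numbers 1 to 2 and 3 to 4 as a term, 4 with ERM numbers 1 and 2 (6 with the block) and 5 with numbers 3 and 4 (6 with the block). For enriched ERM over enriched NES, 2 became 1 with no filter, 1 with only the compared libraries and 5 with ERM numbers 1 and 2; leaving out a library gave 0 to 2. Over all genes, ERM minus NES enrichment had 239 higher and 1 lower with total counts, and 30 and 74 with no filter. With the block it had 815 and 1125 with numbers 1 and 2, and 1184 and 1629 with numbers 3 and 4. Enriched ERM over enriched NES had 655 and 396 with no filter, 379 and 179 with only the compared libraries, and 1139 and 580 with numbers 1 and 2. ERM inputs over NES inputs gave 3, all lower, with ERM numbers 3 and 4 (1438 genes lower and 1653 higher). NES enriched over input gave 3 to 5 with a library left out. ERM minus MITO enrichment gave 9 with total counts. LMNB1 s6G enrichment, with 2, gave 1 with total counts, 4 with DESeq2, 4 with the replicate block, 4 with only the compared libraries and 0 to 1 with a library left out. LMNB1 APEX only enrichment gave 1 with DESeq2, 1 with the replicate block and 2 with only the compared libraries, and unlabelled LMNB1 0 to 3 with a library left out. Over all genes, LMNB1 s6G enrichment had 1545 higher and 879 lower with total counts, and 1542 and 1618 with DESeq2. With only the compared libraries it had 1542 and 1852, and LMNB1 APEX only enrichment 460 and 857. Total counts gave 3 lower for MITO s6G, as for 2777 of 15151 genes (38 higher). For MITO APEX only they gave 1 lower, as for 1101 genes (30 higher). Unlabelled MITO, with 3, gave 0 with relative log expression scaling, 0 with total counts, 0 with the stricter filter, 0 with only the compared libraries and 0 to 3 with a library left out. The replicate block also moved single calls named in the report. The causes were not tested. The planned protein features were not run. Most groups had 2 libraries, the shallowest MITO library, which was unlabelled, held 0.123 M counts, and replicate libraries of labelled enriched MITO arms differed by a chi-square per degree of freedom of 14.8 to 51.9.

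For ERM minus NES enrichment, signs changed for CHSY1 (-0.01) with relative log expression scaling, DESeq2 and no filter, MGAT2 (-0.46) with ERM numbers 1 and 2 and MGAT2 (-0.39) with ERM numbers 1 and 2 and the block. In ERM minus NES enrichment they also changed for CHSY1 (-0.09) with ERM numbers 3 and 4 and CHSY1 (-0.08) with ERM numbers 3 and 4 and the block. CHSY1 (-0.14 to 0.27) and FUT8 (-0.03 to 0.36) spanned 0 with a library left out. For enriched ERM over enriched NES, signs changed for CHSY1 (0.03) with total counts and MGAT2 (-0.19) and CHSY1 (0.13) with ERM numbers 1 and 2. CHSY1 (-0.31 to 0.1) spanned 0 with a library left out. For ERM inputs over NES inputs, signs changed for GALNT2 (0.01) with relative log expression scaling and DESeq2, FUT8 (-0.05) with total counts and MGAT1 (0.03) and GALNT2 (0.05) with no filter. In ERM inputs over NES inputs they also changed for MGAT2 (0.27) with ERM numbers 1 and 2 and FUT8 (-0.01) with ERM numbers 3 and 4. MGAT1 (-0.13 to 0.05), GALNT2 (-0.07 to 0.11), CHSY1 (-0.19 to 0.01), GALNT1 (-0.14 to 0.06) and MGAT2 (-1.09 to 0.09) spanned 0 with a library left out. For ERM enriched over input, signs changed for MAN2A1 (-0.13) with ERM numbers 3 and 4 and MAN2A1 (-0.12) with ERM numbers 3 and 4 and the block. B4GALT1 (-0.01 to 0.13) spanned 0 with a library left out in NES enriched over input. For ERM minus LMNB1 enrichment, signs changed for MAN2A1 (0.1) with ERM numbers 1 and 2 and GALNT2 (0.04) with ERM numbers 3 and 4. GALNT2 (-0.07 to 0.17) and MAN2A1 (-0.35 to 0.03) spanned 0 with a library left out. For ERM minus MITO enrichment, signs changed for MAN2A1 (1.2) and GALNT2 (0.64) with total counts and MAN2A1 (0.32) with ERM numbers 1 and 2. GALNT1 (-0.04 to 0.26) and MAN2A1 (-0.35 to 0.27) spanned 0 with a library left out. For LMNB1 s6G enriched over input, signs changed for MAN1A2 (0.07) and CHSY1 (0.1) with total counts. MAN1A2 (-0.45 to 0.05) and MGAT1 (-0.53 to 0.02) spanned 0 with a library left out. For LMNB1 APEX only enriched over input, signs changed for CHSY1 (0) with relative log expression scaling and DESeq2, MAN1A1 (0.09), CHSY1 (0.12) and GALNT1 (0.03) with total counts and MAN1A1 (0.02) and CHSY1 (0.04) with no filter. MAN1A2 (-0.19 to 0.38), MAN1A1 (-0.22 to 0.08), CHSY1 (-0.25 to 0.13) and GALNT1 (-0.48 to 0.14) spanned 0 with a library left out. For LMNB1 unlabelled enriched over input, signs changed for FUT8 (-0.03) with total counts, FUT8 (-0.03) and GALNT2 (-0.01) with no filter and FUT8 (-0.23) with the replicate block. MGAT2 (-2.01 to 2.32), FUT8 (-1.68 to 0.66) and GALNT2 (-0.29 to 0.09) spanned 0 with a library left out. MAN2A1 (-0.35 to 0.02), MAN1A2 (-0.64 to 0.02) and CHSY1 (-0.34 to 0.12) spanned 0 with a library left out in LMNB1 s6G minus APEX only enrichment. For LMNB1 s6G input over APEX only input, signs changed for CHSY1 (-0.01) and GALNT1 (-0.06) with total counts and GALNT2 (0) with no filter. MGAT2 (-0.25 to 0.86), B4GALT1 (-0.72 to 0.17), GALNT1 (-0.07 to 0.26) and GALNT2 (-0.09 to 0.1) spanned 0 with a library left out. For MITO s6G enriched over input, signs changed for MGAT1 (-0.62), MGAT2 (-0.16), MAN1A2 (-0.56), MAN2A1 (-0.65) and CHSY1 (-0.45) with total counts. MGAT1 (-0.23 to 0.51), MGAT2 (-0.54 to 1.23), CHSY1 (-0.08 to 0.7) and MAN2A1 (-0.04 to 0.56) spanned 0 with a library left out. For MITO s4U enriched over input, signs changed for MGAT1 (-0.34), MAN1A2 (-0.45), CHSY1 (-0.15) and FUT8 (-0.19) with total counts and MAN1A2 (-0.02) with no filter. MGAT1 (-0.17 to 0.46), MAN1A2 (-0.2 to 0.23), MAN1A1 (-0.22 to 0.1) and MAN2A1 (-0.09 to 0.06) spanned 0 with a library left out. For MITO APEX only enriched over input, signs changed for MAN1A2 (-0.61) with total counts. MAN2A1 (-0.65 to 0.03), GALNT1 (-0.57 to 0.2) and MAN1A2 (-0.72 to 0.6) spanned 0 with a library left out. For MITO unlabelled enriched over input, signs changed for MGAT1 (0.19) with relative log expression scaling, MGAT1 (0.26) and MAN2A1 (0.02) with total counts and MGAT1 (0.21), MGAT2 (0.04) and MAN2A1 (0.01) with DESeq2. In MITO unlabelled enriched over input they also changed for MGAT1 (0.04) with the stricter filter and MGAT1 (0.16) with only the compared libraries. MGAT1 (-0.55 to 0.39), MAN2A1 (-1.13 to 0.69), CHSY1 (-2.16 to 0.15) and MGAT2 (-5.14 to 0.12) spanned 0 with a library left out. For MITO s6G input over APEX only input, signs changed for MGAT1 (-0.03) and GALNT2 (-0.09) with total counts and GALNT2 (-0.01) with no filter. MGAT1 (-0.11 to 0.35) spanned 0 with a library left out. For MITO s4U input over APEX only input, signs changed for MGAT2 (-0.04) and FUT8 (-0.08) with total counts, MGAT2 (-0.02) and FUT8 (-0.04) with no filter and FUT8 (-0.02) with only the compared libraries. MGAT1 (-0.11 to 0.48), MGAT2 (-0.31 to 0.4), CHSY1 (-0.18 to 0.01), FUT8 (-0.13 to 0.09) and B4GALT1 (-0.54 to 0.01) spanned 0 with a library left out.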
